A study of Mus musculus with 24 samples.

Results

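The genes described here are 10 genes known to respond to low oxygen: Bnip3, Higd1a, Fam162a, Mif, Ndrg1, Vegfa, Egln3, P4ha1, Pdk1 and Ankrd37. They were selected on earlier views of these data, as low-oxygen genes whose share of reads was held to be higher in co-culture than in controls, and were found by symbol among the 15846 genes with reads in either line. All 10 had reads in C2C12, mouse myoblasts that can fuse into muscle cells, and 8 had reads in NSC34, a mouse motor-neuron-like line. Both lines were labelled wild type, and each was grown alone (control) or with the other line for 3 days (co-culture), with 6 libraries in each of the 4 groups. RNA was read on a Nanopore MinION, so a count is a number of reads, and levels are given as CPM, the reads of a gene per 1000000 reads of its library. No source used here tells how cells of the 2 lines were separated for extraction, or whether the libraries of a group came from separate cultures, so the spread between libraries may be technical.

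When oxygen is plentiful, prolyl hydroxylases mark the HIF-alpha proteins and the VHL complex has them destroyed. When oxygen is scarce, HIF-alpha stays, joins ARNT and binds the short DNA core ACGTG or GCGTG near genes that shift energy use towards glycolysis, trim mitochondria, call in blood vessels and feed back on the pathway. Skeletal muscle uses these genes in exercise and growth, and the counts here read RNA only, not HIF protein.

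In C2C12, the share of reads of Higd1a, Bnip3, Fam162a and Mif was 1.40 to 1.70 times as high in co-culture as in controls. The ratio for Egln3 was 1.46, with an interval that spans 1. Vegfa and Ndrg1 stood at ratios of 0.999 and 1.02, and P4ha1, Pdk1 and Ankrd37 at 0.866, 0.826 and 0.551. The same 4 genes that led in C2C12 also stood higher in co-cultured NSC34, where the other 6 had 0 to 2 reads a group. Since co-culture against control chose the list, these values are given as a description and no test of the 10 genes is read from that contrast.

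Depth set what could be seen. C2C12 libraries held 121154 to 658075 reads, and NSC34 libraries only 88 to 4624 in controls and 2807 to 30314 in co-culture. A gene with 0 reads may have made up to 2.0 CPM of pooled C2C12 controls, but up to 189 CPM of pooled NSC34 controls and 54.5 CPM of pooled NSC34 co-cultures (3 reads of the total). Intervals are exact Clopper-Pearson intervals at 95%, and like these limits they cover counting error only. As for the lines themselves, 12 of 12 muscle markers had reads in C2C12, their summed level being 23333 to 27807 CPM in controls and 27567 to 31819 CPM in co-culture. Of 12 neuronal markers 7 had reads in NSC34, among them Tubb3 (5 control and 21 co-cultured reads). The other 5, Stmn2, Nefm, Mnx1, Map2 and Slc18a3, were at 0. In C2C12, 8 of these 12 had reads, among them Tubb3 (97 and 93) and Stmn2 (176 and 193). As shares, the neuronal list took 694 CPM of pooled NSC34 controls and 654 CPM of co-cultures, against 218 and 194 CPM in C2C12. Those NSC34 shares rest on 11 and 36 reads. Single markers went both ways: Isl1 (1 and 2 reads) and Chat (0 and 1) had reads in NSC34 only, while Stmn2, Nefm and Map2 had reads in C2C12 only. Libraries hold RNA of many cells, so more RNA per cell and more cells with the RNA cannot be told apart.

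The promoters of the leading genes are shown first because HIF acts through the core letters in them. RefSeq promoters (250 bases before to 50 bases after the start site, build GRCm38.p6) were at hand for 9 of the 10 genes, 11 promoters in all, and were searched for ACGTG and GCGTG on both strands. Capitals mark the matches as they read on the printed strand, so that CACGT and CACGC are matches of the opposite strand. All 4 genes lie on the minus strand, and each sequence is printed 5′ to 3′ on the gene's own strand.
Bnip3, chr7:138909520-138909756: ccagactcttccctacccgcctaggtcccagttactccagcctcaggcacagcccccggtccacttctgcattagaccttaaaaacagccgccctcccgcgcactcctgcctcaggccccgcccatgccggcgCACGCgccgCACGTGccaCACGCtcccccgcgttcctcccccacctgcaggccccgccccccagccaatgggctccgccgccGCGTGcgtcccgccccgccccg
Fam162a, chr16:36071595-36071684: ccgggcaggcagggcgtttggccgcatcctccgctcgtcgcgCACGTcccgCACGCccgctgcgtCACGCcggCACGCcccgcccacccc
Higd1a, chr9:121857847-121857876: ggtctagcctGCGTGCGTGgcgttcgcgga
Mif, chr10:75860235-75860264: cggtactgagctgggtCACGTagctcaggt

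The Bnip3 stretch, from 250 to 14 bases before the start site, held 5 matches, a pair of which share the palindrome CACGTG. Fam162a had 6 matches in its promoter, 4 of them in the 90 bases printed. Higd1a had 3, and the 30 bases printed hold 2 that overlap by 1 base. In GENCODE M21 that stretch is part of the first exon of transcript Higd1a-201, which starts further upstream than the RefSeq start site. Mif had 1 match, at base 30 counted from its start site. Of all 32851 promoters of the table, 19.6% held ACGTG, 32.4% held GCGTG, 43.8% held either and 8.93% held 3 or more matches. Ankrd37 (4) and P4ha1 (3) had 3 or more as well, neither of which stood higher in co-cultured C2C12. Egln3 had 1, Pdk1 had 2 in one promoter and 0 in the other, and Vegfa likewise had 0 and 2. GC content was 71.7% for Bnip3, 72.7% for Higd1a and 72.3% for Fam162a, against a median of 52.7% over all promoters, and both motifs hold the pair CG. A match of these letters is a description of the window and no evidence of binding.

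Higd1a encodes a small protein of the inner mitochondrial membrane that associates with the respiratory chain (chromosome 9, 121848563 to 121858362, GRCm38). Its C2C12 control libraries 1 to 6 stood at 262, 202, 213, 239, 178 and 221 CPM. The co-cultured libraries 1 to 6 stood at 322, 380, 369, 271, 413 and 336 CPM. Each co-cultured library lay above each control, with co-culture 4 (271) nearest to control 1 (262). Pooled over libraries, Higd1a had 315 of 1497275 reads in controls and 650 of 1812360 in co-culture, a ratio of 1.70 (1.49 to 1.96). The edgeR log2 fold change was 0.72 (SE 0.127), and it was 0.67 to 0.78 with each library left out in turn.

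Such a full separation upward was found for 27 of the 2570 genes tested in C2C12 (1.05%), and Higd1a was the only one of the 10 genes among them. In the same fit 1.44% of genes passed, 0.817% (21) as higher and 0.623% (16) as lower in co-culture, and Higd1a, Fam162a and Mif were among the 21. As the list was built on this contrast, the comparison with that share adds nothing about the genes.

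Fam162a, a mitochondrial protein linked to cell death under low oxygen, lies on chromosome 16 (36043761 to 36071594). Its controls 1 to 6 held 191, 301, 240, 215, 249 and 208 CPM, and the co-cultured libraries 387, 419, 404, 357, 401 and 287 CPM. The groups overlapped at one point only: co-culture 6 lay under control 2, and the other 5 co-cultured libraries were above all controls. With 387 control and 695 co-cultured reads the ratio was 1.48 (1.31 to 1.68), and the log2 fold change 0.64 (SE 0.121). Control 2 is the deepest control library and held 198 of the 387 control reads, and without it the pooled ratio was 1.70. Co-culture 2 is the deepest co-cultured library and held 229 of the 695 co-cultured reads. Without that library the pooled ratio was 1.42 (1.24 to 1.63).

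Bnip3 is a receptor on the outer mitochondrial membrane that hands mitochondria to autophagosomes (chromosome 7, 138890836 to 138909519). The controls read 47.7, 65.3, 53.3, 24.8, 61.0 and 32.5 CPM, from only 3 to 43 reads each. Co-cultured libraries read 91.2, 95.1, 105, 33.0, 88.3 and 59.7 CPM, from 5 to 52 reads. Of these, 4 exceeded the highest control, while co-cultures 4 and 6 fell among the controls, so the groups overlapped. The pooled ratio was 1.52 (1.16 to 2.02) and the log2 fold change 0.65, close to that of Fam162a, but with an SE of 0.244.

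Mif, a cytokine that also acts as a tautomerase, lies on chromosome 10 (75859353 to 75860240) and had the most reads of the list. Control libraries ranged from 1057 to 1295 CPM with a median of 1101 CPM, and co-cultured ones from 1276 to 1777 CPM with a median of 1559 CPM. Co-culture 6 (1276) lay just under control 6 (1295), and the other 5 lay above every control. Pooled, the share was 1125 CPM in controls and 1578 CPM in co-culture, a ratio of 1.40 (1.32 to 1.49), with a log2 fold change of 0.45 (SE 0.0848). Of these 4 genes Mif had the smallest change and the narrowest interval.

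**Figure D1:**
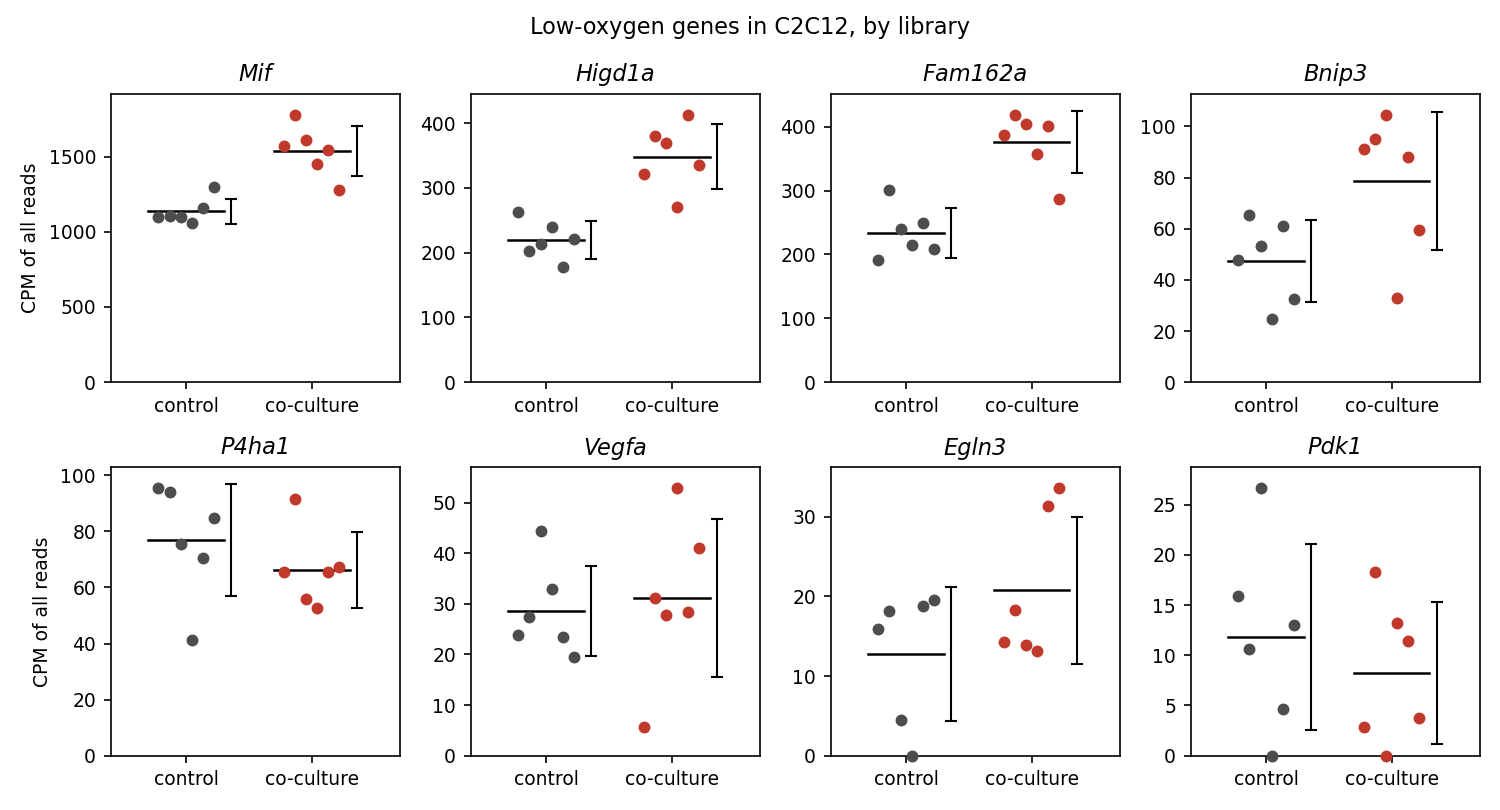
CPM of all reads (y axis, from 0) of 8 genes in the 6 control and 6 co-cultured C2C12 libraries (points, in order of library number); lines are means and bars beside them ± 1 SD. Higd1a groups do not overlap, Mif and Fam162a overlap by 1 library, and the points of P4ha1, Vegfa, Egln3 and Pdk1 overlap widely.

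The other 6 genes serve feedback, collagen, blood vessels, metabolism and stress. Egln3, the prolyl hydroxylase PHD3 that is itself a HIF target, gave 22 control and 39 co-cultured reads. Its controls read 15.9, 18.2, 4.44, 0, 18.8 and 19.5 CPM and its co-cultures 14.2, 18.3, 13.9, 13.2, 31.3 and 33.6 CPM. Co-cultures 5 and 6 were above all controls and the other 4 lay among them. The ratio of 1.46 had an interval of 0.847 to 2.59, so that a difference could not be seen at this depth.

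P4ha1, the catalytic subunit of the enzyme that hydroxylates collagen prolines, had reads enough to be tested (124 control, 130 co-cultured). Controls read 95.3, 94.2, 75.4, 41.3, 70.4 and 84.6 CPM, and co-cultures 65.5, 91.4, 55.7, 52.8, 65.5 and 67.2 CPM. No co-cultured library exceeded the highest control. Its log2 fold change was -0.18 (SE 0.199), and the pooled ratio was 0.866 (0.672 to 1.12), with its upper bound under the ratio of Mif.

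Vegfa, the main growth factor of blood vessels, gave 43 and 52 reads. Controls lay between 19.5 and 44.4 CPM (median 25.6) and co-cultures between 5.70 and 52.8 CPM (median 29.8), both the lowest and the highest value being co-cultured. The ratio of 0.999 had an interval of 0.654 to 1.53, wide enough to hold the ratios of Mif, Bnip3 and Fam162a as well. Pdk1, the kinase that switches off pyruvate dehydrogenase, gave 18 reads in either group, with 0 to 26.6 CPM in controls and 0 to 18.3 CPM in co-culture. Ndrg1, a stress and differentiation gene, gave 17 reads in 4 control libraries and 21 reads in 6 co-cultured ones. Ankrd37, an ankyrin-repeat gene induced by HIF, gave 9 reads from controls 2 and 5 and 6 reads from 4 co-cultured libraries. For these 3 the intervals ran from 0.161 (Ankrd37) to 2.06 (Ndrg1), and neither a rise nor a fall was detectable.

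**Figure D2:**
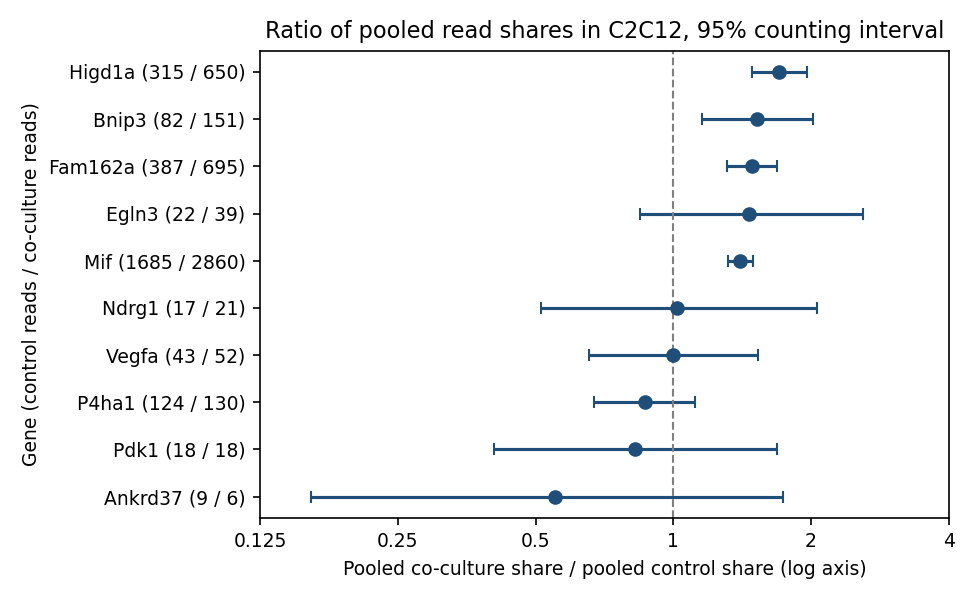
Pooled co-culture share divided by pooled control share in C2C12 (x axis, log scale) for the 10 genes, with exact 95% counting intervals; reads of both groups stand beside each name. The intervals of Higd1a, Bnip3, Fam162a and Mif lie above 1 (dashed), and those of the other 6 span it.

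In all, 4 of the 10 genes had an interval above 1 and 0 one below. Over the 10055 C2C12 genes with more than 3 reads in each group, 4.96% had an interval above 1 and 9.57% one below, the median ratio being 0.943. Those intervals leave out the spread between libraries, and as the contrast chose the list, the count of 4 is a description.

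Transcript length moved with the contrast and bears on the leading genes. Over 2561 tested genes, log2 fold change and length had a Spearman correlation of -0.28 (across genes, which are not independent). The shortest of 5 equal bins had a median of 0.07 and the longest one of -0.15. Mif (544 bases) and Fam162a (713 bases) are in the shortest bin, Bnip3 and Higd1a in bin 3, and P4ha1 in bin 4. With the length trend removed, log2 fold changes were 0.40 for Mif, 0.58 for Fam162a, 0.65 for Bnip3, 0.74 for Higd1a and -0.10 for P4ha1. Of 10 muscle markers tested, Myog (0.43, edgeR adjusted p = 0.0457) and Ckm (0.64, edgeR adjusted p = 0.00268) passed as higher and 0 as lower. Over all tested genes 0.817% passed as higher and 0.623% as lower. The fold change was above 0 for 9 of the 10 markers and below 0 for Myh3 (-0.37, edgeR adjusted p = 0.394). The part of muscle differentiation in the values of the 10 genes was not tested.

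The 5 tested genes were also compared from library to library within the groups. With group means subtracted, Pearson correlations over the 12 C2C12 libraries were above 0 for 9 of 10 pairs, from 0.10 (Fam162a and P4ha1) to 0.58 (Bnip3 and Fam162a), and -0.15 for Higd1a and Fam162a. The libraries share depth and composition across genes, so these are descriptions. The tested genes most like the mean of the 5, by the same measure, were Cobl (0.85), Nsrp1 (0.84), Tns1 (0.84), Lmod2 (0.80) and Rps13 (0.80). They were picked as the highest among all tested genes over only 12 libraries, so values of this size may arise by chance. None of these 5 passed between co-culture and control (edgeR adjusted p = 0.145 to 0.928).

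In NSC34, the same 4 genes carried nearly all reads of the list. Higd1a had 0 of 15858 reads in controls and 37 of 55007 in co-culture, with 4, 20, 3, 5, 4 and 1 reads in co-cultures 1 to 6. Its co-cultured level of 673 CPM (474 to 927) is 3.56 times the 189 CPM that 3 pooled control reads would make. That ratio leaves out the counting error of the co-cultured reads, so it is no lower bound. The exact upper limit for 0 control reads was 233 CPM. Bnip3 had 0 control reads and 32 co-cultured ones (6, 16, 2, 2, 1 and 5), or 582 CPM, 3.08 times the 3-read level. Fam162a had 0 control reads and 30 co-cultured ones (0, 20, 3, 2, 2 and 3), or 545 CPM, 2.88 times the 3-read level. Co-culture 2 held 20 of these 30 reads and was the deepest library. Without it the ratio to the 3-read level was 2.14 for Fam162a, 3.64 for Higd1a and 3.43 for Bnip3.

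Had controls held these genes at the co-cultured share, 10.7 reads of Higd1a, 9.23 of Bnip3 and 8.65 of Fam162a would have been counted in them. The contrast that chose the list is the one described here, so nothing is read from the zeros about the genes.

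Mif had the most reads of the list in both NSC34 groups. Controls 1 to 6 gave 0, 6, 0, 1, 7 and 2 reads, and co-cultures 14, 95, 13, 14, 25 and 4. As levels these were 0, 1472, 0, 447, 1514 and 2433 CPM against 3249, 3134, 2597, 4640, 2617 and 1425 CPM. Co-culture 6 lay under 3 controls, and the other 5 lay above all controls. The pooled share was 1009 CPM (577 to 1638) in controls and 3000 CPM (2560 to 3493) in co-culture, a ratio of 2.97 (1.78 to 5.32), and 2.81 without co-culture 2.

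**Figure D3:**
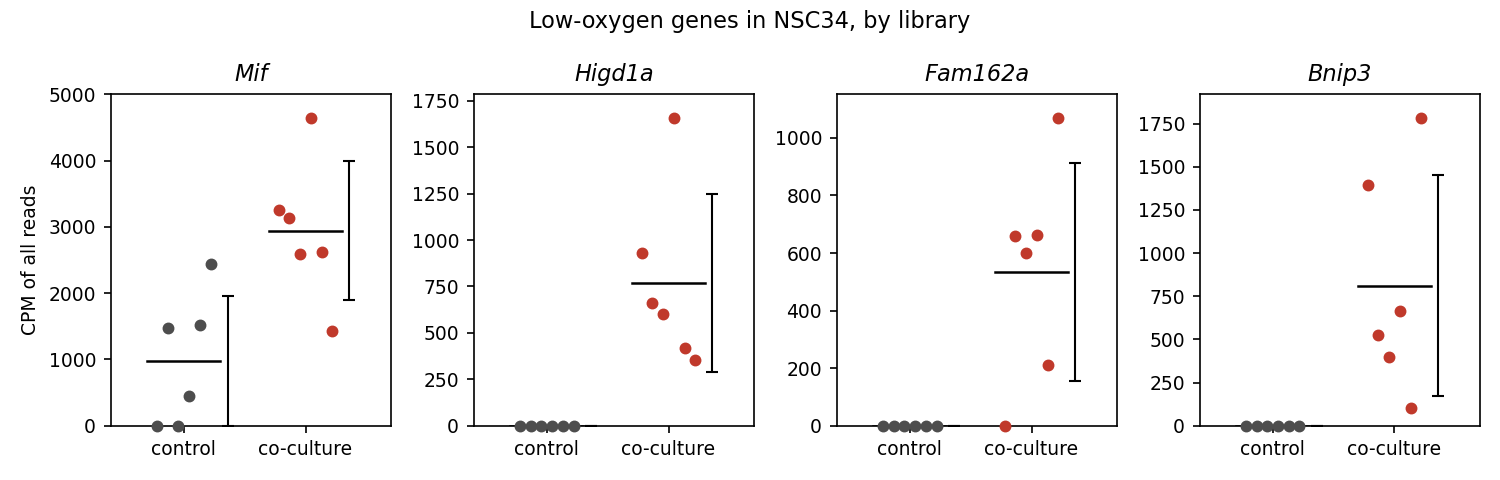
CPM of all reads (y axis, from 0) of 4 genes in the NSC34 libraries, drawn as for C2C12. Higd1a, Fam162a and Bnip3 are at 0 in all 6 controls, where the libraries held 88 to 4624 reads, and Fam162a is also at 0 in co-culture 1.

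The remaining genes were near the detection limit in NSC34. Ankrd37 had 1 control and 2 co-cultured reads, P4ha1 had 1 of each, Egln3 and Pdk1 had 0 and 1, and Vegfa and Ndrg1 had none in 70865 reads. Only genes with enough reads in enough libraries could be tested here, and none of the 10 was among those 49. Of the 49 genes, 0 (0.0%) passed by edgeR in either direction, 0 by DESeq2, and 1 had an unadjusted p under 0.05 by either tool. Full separation upward, 6 libraries over 6, was found for 0.541% of the 1109 genes with 10 or more reads, and Bnip3 and Higd1a were 2 of those 6 genes; as the contrast chose the list, nothing is read from this count.

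Whether reads from C2C12 cells entered the co-cultured NSC34 libraries was not tested. The muscle markers are given as values only. Mylpf, at 14406 of 1812360 reads in co-cultured C2C12, had 0 of 55007 reads in co-cultured NSC34, as did Des, Acta1, Myl1, Ckm, Myog and Tnnc2. Of the 12 muscle markers, 2 had any NSC34 read: Chrna1, with 3 control and 17 co-cultured reads, and Myh3, with 1 and 0. The list summed to 0 to 491 CPM in NSC34 controls and 0 to 928 CPM in co-cultures. The summed neuronal markers in C2C12 were 178 to 239 CPM in controls and 175 to 214 CPM in co-culture. Stmn2, at 0 in NSC34, gave 176 control and 193 co-cultured reads of that sum. As the list took only 654 CPM of pooled NSC34 co-cultures, this sum could not show a small share of NSC34 reads in C2C12.

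The lines were also set against each other, C2C12 over NSC34. Averaged over both conditions, this is another contrast than the one that chose the genes. It holds the same libraries, however, so it is not free of that choice. The log2 difference of Mif was then 0.21 (SE 0.213, edgeR adjusted p = 0.415) with TMM scaling and -0.39 (edgeR adjusted p = 0.144) with library totals, so no direction was settled. TMM moved the median of all 1328 genes to 0.70, and 56.1% of them passed in that fit. For Higd1a and Fam162a the averaged fit passed (edgeR adjusted p = 0.0147 and 0.00637), but it rests on NSC34 controls with 0 reads. Neither the fitted size nor the pass is therefore read as a result. With DESeq2 their adjusted p were 0.524 and 0.218, and with library totals in edgeR 0.113 and 0.0591.

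The co-cultured libraries alone are 1 arm of the contrast that chose the list, so their values are a description with no test. There the log2 difference of Mif, C2C12 over NSC34, was -0.81 (SE 0.160), and -0.94 with library totals. That of Higd1a was -0.82 (SE 0.271), and likewise -0.94 with library totals. That of Fam162a was -0.40 (SE 0.311). With library totals and 1 library at a time removed, Mif ran from -1.0 to -0.87, Higd1a from -1.06 to -0.79 and Fam162a from -0.69 to -0.11. Bnip3 fell under the filter of this fit; its NSC34 co-cultures ran from 104.7 CPM, a single read, to 1781 CPM, and its C2C12 co-cultures from 33.0 to 104.5 CPM, so the ranges all but touched. The order of pooled levels was thus the same for Higd1a, Fam162a and Bnip3: NSC34 co-culture, then C2C12 co-culture, then C2C12 control. NSC34 controls had 0 reads of these genes, with an exact upper limit of 233 CPM. That limit lies above the C2C12 control levels of Higd1a (210 CPM) and Bnip3 (54.8 CPM), so for these the NSC34 controls could not be placed. Whether the change with co-culture differed between the lines was not tested.

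**Figure D4:**
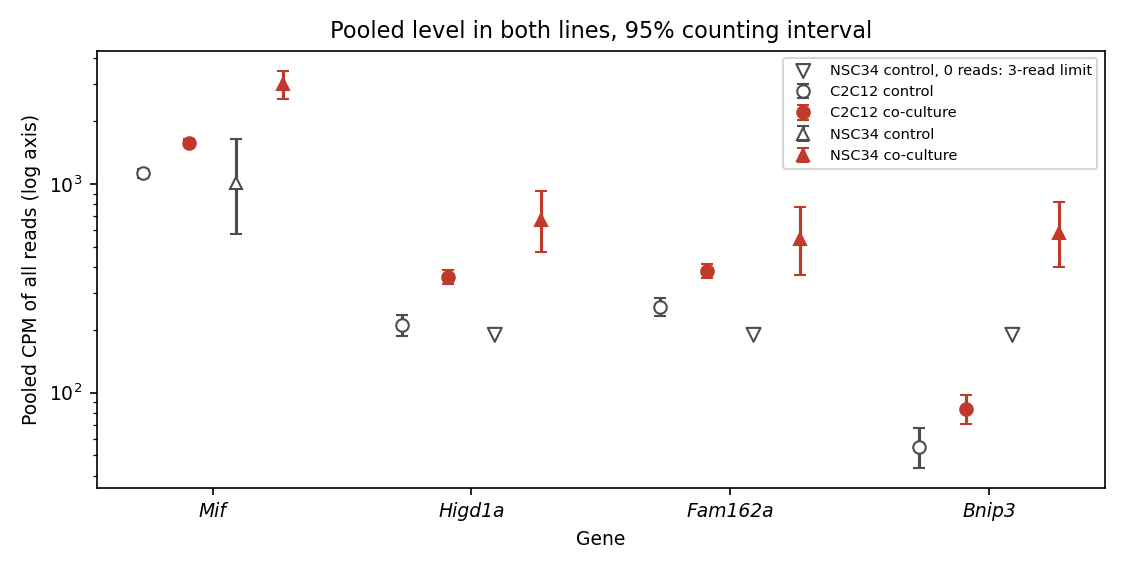
Pooled CPM of all reads (y axis, log scale) of 4 genes in the 4 groups, with exact 95% counting intervals; open triangles pointing down mark the 3-read limit of NSC34 controls with 0 reads. For each gene the co-cultured NSC34 level is the highest of the 4, from 545 CPM for Fam162a to 3000 CPM for Mif.

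The reads of the leading genes came from 1 transcript each, in both groups. In C2C12 Mif-201 took 99.8% of Mif reads in controls and 99.6% in co-culture (means of 6 libraries; exact permutation p = 0.697). Higd1a-201 took 97.4% and 98.9% (exact permutation p = 0.305), and Fam162a-201 took 96.5% and 95.3% (exact permutation p = 0.333). These 3 tests were two-sided over 924 splits, and none had an adjusted p under 0.05. Of the genes with fewer reads, P4ha1 was divided most evenly: P4ha1-203 took 41.9 ± 16.6% of control and 57.7 ± 14.7% of co-cultured P4ha1 reads (SD, n = 6, exact permutation p = 0.117). Vegfa reads sat almost wholly on either Vegfa-201 or Vegfa-202, library by library. Vegfa-202 had 94.4%, 90% and 100% in controls 2, 3 and 5 but 0% in controls 1, 4 and 6, and 100% in co-cultures 4 and 5 but 0% in 1, 2 and 3; co-culture 6, with 27.3%, was the mixed one. In NSC34 co-cultures, Bnip3-201 had 32 of 32 Bnip3 reads and Higd1a-201 had 36 of 37.

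Shared sequence could pass reads between some of these genes and others. Mif shares 508 bases at 99.4% identity with C230062I16Rik, which had 45 C2C12 reads, against 4532 on Mif-201. The 6 genes that share sequence with Bnip3 and the 2 that do with Higd1a had 0 reads in either line. Pdk1 shares sequence with 17 genes that together had 2987 C2C12 and 135 NSC34 reads, against its own 18 C2C12 reads in either group, so its counts are uncertain. Fam162a overlaps Wdr5b (8 C2C12 reads) on the opposite strand, and Ankrd37 overlaps Ufsp2 (155 C2C12 reads); without a stated strand setting these cannot be told apart.

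The wider pathway showed where else RNA moved in C2C12, with the genes above left out of each list. Of 16 genes of the HIF machinery 13 had reads and 4 were tested: Elob (0.10), Eloc (0.13), Rbx1 (-0.0073) and Crebbp (-0.09). Elob, Eloc and Rbx1 belong to the ubiquitin ligase that VHL guides, and Crebbp is a coactivator. None passed (edgeR adjusted p = 0.602 to 0.992). Hif1a itself had 50 control and 43 co-cultured reads, a ratio of 0.710 (0.461 to 1.09), and Epas1 and Hif3a had none. Egln1, the main oxygen-sensing hydroxylase, had a ratio of 1.24 (0.855 to 1.81).

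Among 49 other low-oxygen targets 4 were tested and 0 passed: Lox (-0.59, edgeR adjusted p = 0.230), Gys1 (0.26), Bnip3l (0.14) and Bhlhe41 (-0.09). Lox, which cross-links collagen, had the largest change of the 4. The list as a whole took 812 CPM of pooled control reads and 836 CPM of co-cultured reads. Of its 31 genes with more than 3 reads in each group, 19 had a ratio above 1 and the median was 1.03, against 4192 of the 10055 C2C12 genes with such counts and a median of 0.943. The interval lay above 1 for 6.45% of the 31 and below 1 for 9.68%, close to the 4.96% and 9.57% of all genes. Slc2a1, a glucose transporter, and Ero1l, an oxidase of the endoplasmic reticulum, had intervals above 1 (ratios 1.50 and 1.69). Plod2, Lox and Ccng2 had intervals below 1 (0.541, 0.693 and 0.445). These 5 are named because their intervals leave out 1.

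Glycolysis, which HIF raises, is listed with 19 genes, of which 13 were tested. The 3 that rose were Tpi1 (0.64, edgeR adjusted p = 0.0139), Gapdh (0.35, edgeR adjusted p = 0.0274) and Pgam2 (0.67, edgeR adjusted p = 0.0349). All 13 fold changes were above 0 and their median was 0.38, against 0.0024 over all genes tested. Ldha, which turns pyruvate into lactate, had 0.45 (edgeR adjusted p = 0.0524). With the shallowest controls, 1 and 4, left out none of the 3 passed, Tpi1 being closest (0.58, edgeR adjusted p = 0.0504). Pgam2 did not pass with the length trend removed either (0.60, edgeR adjusted p = 0.0634). Aldoa was counted at 0 in both C2C12 groups, against 12 control and 89 co-cultured reads in the far shallower NSC34 libraries. The C2C12 list may thus lack reads of Aldoa, and the reason was not tested. This list, like the others, was written with earlier results of these data known, so its counts are a description.

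**Figure D5:**
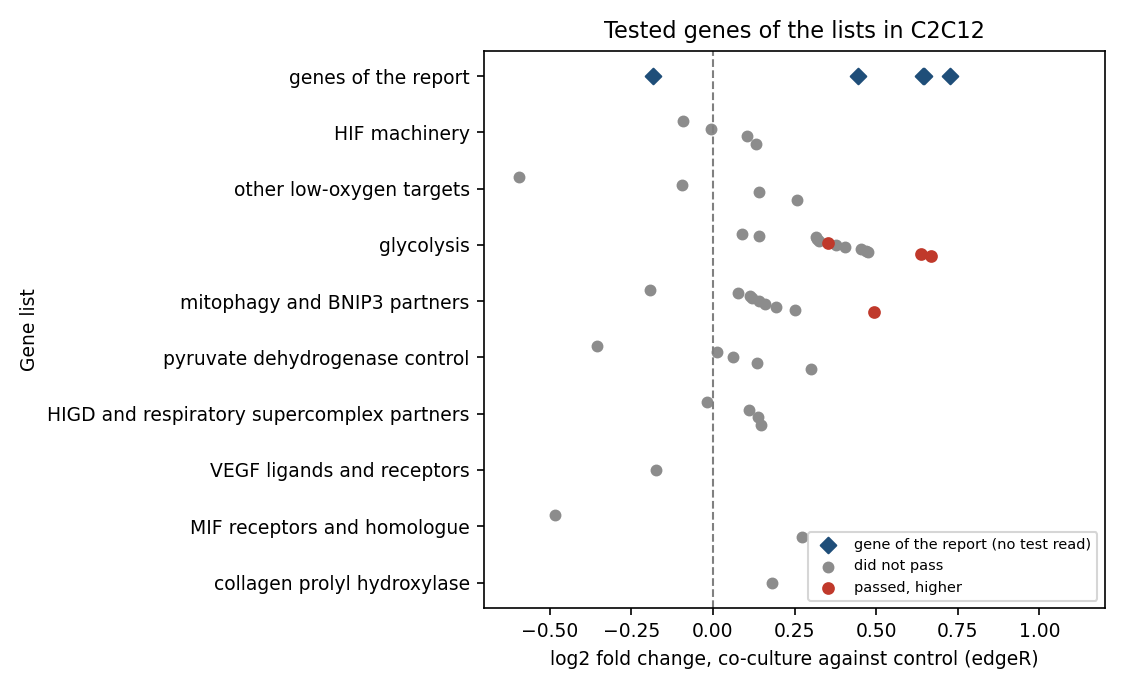
Log2 fold change of co-culture against control in C2C12 by edgeR (x axis) for each tested gene of 9 lists and the 5 tested genes of the report (diamonds). Red points passed: 3 of glycolysis and Map1lc3a of mitophagy; HIF machinery and other low-oxygen targets sit on both sides of 0.

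Among the partners of single genes 1 passed. For Bnip3, 9 of 14 mitophagy genes were tested, and Map1lc3a, one of the LC3 proteins that Bnip3 binds, rose by 0.49 (edgeR adjusted p = 0.0349). Map1lc3b (0.16), Sqstm1 (0.19) and Gabarap (0.11) did not pass, and the median was 0.14. Map1lc3a had an edgeR adjusted p of 0.0570 with the length trend removed.

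For Pdk1, 5 of 12 genes of pyruvate dehydrogenase control were tested and none passed, with Pdha1 at 0.30 and Dld at -0.35 (edgeR adjusted p = 0.584 and 0.415). For Higd1a, the 4 tested partners in the respiratory chain lay between -0.02 (Cox7a2l) and 0.15 (Higd2a), and none passed. For Mif, its homologue Ddt was at 0.27 and its receptor component Cd44 at -0.48 (edgeR adjusted p = 0.715 and 0.324), while Cd74, the receptor subunit that binds Mif, had 0 reads. For Vegfa, the co-receptor Nrp1 was at -0.17 (edgeR adjusted p = 0.832). For P4ha1, the partner subunit P4hb was at 0.18 (edgeR adjusted p = 0.578). None of the 3 relatives of Ndrg1 could be tested; Ndrg3 and Ndrg4 had ratios of 0.578 (0.380 to 0.872) and 0.505 (0.339 to 0.745).

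In NSC34 the lists could be given as pooled reads only. By library, other low-oxygen targets summed to 0 to 1497 CPM in controls and 0 to 1779 CPM in co-culture, so the groups overlapped. Pooled, that list took 12 control and 73 co-cultured reads, or 757 and 1327 CPM. Slc16a3, which exports lactate, had 0 and 13 of these, and Ddit4, a stress-induced inhibitor of growth signalling, 1 and 12; both are named after their values were seen. Glycolysis, here with reads of Aldoa, took 82 and 609 reads, or 5171 and 11071 CPM. HIF machinery took 46 and 120 reads, or 2901 and 2182 CPM; its libraries ran from 0 to 4913 CPM in controls and from 1398 to 4972 CPM in co-culture, so the groups overlapped. None of these differences was tested.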

How the data were processed

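Total RNA of 12 C2C12 and 12 NSC34 libraries was read on a Nanopore MinION. The authors deposited unscaled counts of reads per Ensembl transcript, in 1 table per line. The build is GRCm38, per the submitters' processing notes; for aligner, counter, annotation and strand, nothing is given in the sources used here. All columns matched a library by name. Transcripts were named by GENCODE M21 (37415 of 37677 in C2C12, 10374 of 10427 in NSC34) and summed per gene. CPM are of all reads of a library.

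Each line was fitted over all genes with edgeR 4.0.16 in R 4.3.3 (filterByExpr, TMM, quasi-likelihood F test, Benjamini-Hochberg over all genes tested, threshold 0.05). That left 2570 C2C12 and 49 NSC34 genes. The lines were compared in 1 fit over 4 groups. On simulated data TMM shifted the fold changes between lines in the shallow NSC34 libraries and library totals did not, so both are printed. Transcript shares had exact two-sided permutation tests for genes with 10 or more reads in every library. Intervals of a ratio are exact and conditional on the sum of both counts. Shared sequence was searched with BLAST 2.17.0 at 90% identity over 100 bases.

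The genes and lists were chosen with earlier results of these data known. Named are all 10 genes, each tested gene of the HIF machinery, up to 4 genes of smallest p from each other list, and the 5 genes most correlated with the mean of the 5 tested ones; others are said to be chosen after their values were seen or are listed for their role. Alternatives were other scaling, DESeq2 1.42.0, limma-voom 3.58.1, other filters, a length correction, the replicate block and libraries left out. Same-numbered libraries of C2C12 correlated by -0.054 to 0.105, and no 2 libraries of a group agreed within sampling noise.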

Additional observations from a re-analysis of the deposited data

Results flagged for a closer look

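P4ha1 in co-cultured C2C12 had 1 library far from the others: co-culture 2 stood at 91.4 CPM, while the other 5 lay between 52.8 and 67.2 CPM. It is also the deepest co-cultured library, with 50 P4ha1 reads. By chance about 1 in 20 groups shows such a gap, and many groups were examined.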

How the results depend on the processing

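The C2C12 log2 fold changes of Higd1a, Fam162a, Bnip3, Mif and P4ha1 kept their sign in all 9 other settings and in 12 of 12 fits with a library left out. The count of C2C12 genes that passed moved more than these values: 37 as reported, 67 with DESeq2, 106 with no filter, 10 with controls 1 and 4 left out, and 11 to 74 with each library left out. Genes of the pathway lists that passed as higher were 4 as reported, 2 with the replicate block, 2 with the length trend removed and 0 with controls 1 and 4 left out, and 1 to 6 with each library left out; 0 passed as lower in any setting run. Pgam2 held in 3 of 12 such fits, Map1lc3a in 5, Gapdh in 8 and Tpi1 in 12. In NSC34 the count of 0 became 7 with a filter of 10 reads in total, and 0 to 1 with each library left out. Between the lines 745 genes passed, 277 with control libraries only, 1169 with libraries under 1000 reads left out, 1179 with NSC34 co-culture 2 left out, 3015 with no filter, and 426 to 1179 with each library left out. The line difference of Mif turned from 0.21 to -0.39 with library totals, -0.22 with RLE size factors, -0.22 with DESeq2, -0.81 with co-cultured libraries only, -0.94 when these also had library totals, and ran from -0.068 to 0.73 with a library left out. That of Higd1a turned to -0.82 and -0.94, and that of Fam162a to -0.40 and -0.51, in the same 2 fits of co-cultured libraries. Fits of co-cultured libraries with library totals, and of the lines with each library left out or with the replicate block, were chosen after seeing the data. The second transcript moved against the first by construction: by 0.13 percentage points for Mif-202, -0.92 for Higd1a-206 and 1.03 for Fam162a-202; leave-one-out differences of the first ran from -0.20 to 0.071, 0.54 to 2.36 and -1.80 to -0.48. Of the genes near 0, 4 changed sign: Bhlhe41 to 0.069 and Crebbp to 0.094 with the length trend removed, Crebbp to 0.030 with the replicate block, Cox7a2l to 0.072 with no filter, and Rbx1 to 0.0028 with DESeq2, 0.082 with no filter and 0.077 with controls 1 and 4 left out; with each library left out they ran from -0.22 to 0.056, -0.19 to 0.15, -0.080 to 0.042 and -0.058 to 0.046. The causes were not tested. Replicate numbers did not pair the libraries: 1 of 6 same-numbered C2C12 pairs correlated over 0.1 and 1 of 6 best with its own number; with the replicate block 26 C2C12 genes, 0 NSC34 genes and 746 genes between the lines passed. Depth limits NSC34 most: the controls pool to 15858 reads.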
